A study of Solanum lycopersicum with 12 samples.

Results

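Genes of the fruit cuticle were followed in tomato pericarp, together with the GDSL lipase family to which the cutin polymerising enzyme belongs. Members were all genes whose deposited description held 3-ketoacyl-CoA synthase, ECERIFERUM, GDSL, glycerol-3-phosphate acyltransferase, fatty acyl-CoA reductase, long chain acyl-CoA synthetase or cutin, with at least 10 counts in at least 3 libraries. Of 35882 features in the count table, 275 matched by description. Of these, 129 met the minimum and 146 did not, 77 of the latter with no count in any library. All 129 were among the 19664 genes tested. The minimum was reached in every library by 89 of them, at mature green alone by 3, and in a single group by 0. The 3 were Solyc09g014350, Solyc02g071700 and Solyc03g006220. They entered only through the stage where they were high, so their falls to breaker are not independent of the rule. Just inside the minimum lay Solyc06g007170 with 75 counts over all libraries, Solyc05g013690 with 79 and Solyc09g065780 with 79, and just outside lay Solyc09g008690 with 90, Solyc02g071720 with 50 and Solyc07g062210 with 50.

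The study compared fruit wall tissue of the wild type, labelled A and called WT here, with that of a mutant labelled cr, by RNA sequencing. Each genotype was sampled at mature green (label 35) and at breaker (label 38), the stage at which ripening colour first appears, giving 4 groups of 3 libraries. The gene altered in cr was not given in the sources used here, nor were the cultivar or any treatment, so the label could not be checked against a targeted gene. Whether the 3 libraries came from different plants or fruits was not stated either, and p-values therefore reflect only how much these libraries vary, a spread that could be technical.

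The plant cuticle is a layer of the polyester cutin filled and covered with waxes, laid down by epidermal cells on the outer face of the fruit. Waxes begin as very-long-chain acyl chains, built by an elongase whose condensing subunit is a 3-ketoacyl-CoA synthase (KCS) and then turned into alkanes by the ECERIFERUM (CER) proteins CER1 and CER3 or into alcohols by fatty acyl-CoA reductases (FAR), as known from Arabidopsis. Cutin monomers are made by acyl activation through long chain acyl-CoA synthetases (LACS), hydroxylation by cytochromes P450 of the CYP86A and CYP77A families, and transfer to glycerol by glycerol-3-phosphate acyltransferases (GPAT). In tomato the GDSL enzyme CUTIN DEFICIENT 1 (CD1) links these monomers outside the cell.

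By role the 129 genes were 13 KCS, 8 ECERIFERUM, 4 FAR, 12 LACS, 5 GPAT, 48 GDSL esterases or lipases and 1 regulator named for cutin. The wording of the rule also took in 8 acyltransferases that act on 1-acylglycerol phosphate (LPAT), enzymes of membrane lipid synthesis, and 30 trichome birefringence-like proteins, whose Arabidopsis relatives acetylate cell wall polysaccharides. A few members need care: the CER7-like Solyc05g047420 is related to a subunit of the exosome, and the short names of Solyc05g013210, Solyc04g079880 and Solyc01g098670 are those of other proteins than their best homologues. The strand and multi-mapping settings were not given in the sources used here. The 8 members that overlap a feature on the opposite strand (Solyc01g098670, Solyc01g099010, Solyc01g109180, Solyc02g071685, Solyc05g013210, Solyc05g013220, Solyc08g082490 and Solyc09g010260) are therefore uncertain, as are the 37 that lie within 20 kb of another member where copies are near-identical.

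Libraries held between 17703054 and 19426192 counts, and the members made up 0.286 to 0.481% of them. Ripening markers (polygalacturonase, phytoene synthase, E8 and the ethylene synthesis gene ACS2) rose from mature green to breaker in both genotypes, 4 of 4 in each. Their summed level was 1661 to 3185 CPM in WT and 793 to 1218 in cr at mature green. At breaker it was 28211 to 30014 CPM in WT and 6721 to 14303 in cr, lowest in cr library 1. CPM here means counts scaled to library size with factors from the trimmed mean of M-values. The 5 epidermis markers (CD2, itself a member, a MIXTA-like factor, the chalcone synthases CHS1 and CHS2 and their regulator MYB12) all rose in WT and 4 rose in cr, and their summed level was 119 to 235 CPM in WT and 86.03 to 125 in cr at mature green, against 940 to 1188 in WT and 382 to 674 in cr at breaker. Their log2 stage changes in WT ran from 0.59, for CD2, to 4.46, so the sum is no even measure of the 5. At breaker their log2 differences of cr from WT ran from -1.53 to -0.36. None of these markers was at 0 in any library. In whole pericarp, fewer epidermal cells and less RNA per epidermal cell cannot be told apart. The part of ripening progress or of tissue make-up in the differences below was not tested.

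Between the stages more members fell than rose in WT, and more rose than fell in cr. The order was the same over all genes in each genotype, with a smaller gap. From mature green to breaker in WT, 51 of 129 members (39.5%) fell and 18 (14.0%) rose, where 24.9% of all tested genes fell and 23.4% rose. Of the members that fell, 41 did so by at least 1 on the log2 scale. In cr, 14 members (10.9%) fell and 27 (20.9%) rose, where 13.5% of all genes fell and 15.2% rose. The median log2 fold change of the members was -0.27 in WT and 0.03 in cr, against 0.00 in both over all genes. Calls rest on an adjusted p under 0.05 in edgeR's quasi-likelihood test.

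Of the 51 genes that fell in WT, 12 also fell in cr, 36 were not called there and 3 rose there. Those 3 were chosen for naming after their values were seen: the FAR feature on chromosome 11 described below, the CER2-like gene Solyc12g087980 and the GDSL gene Solyc07g049440, whose log2 fold changes were -1.44 ± 0.31 (SE) in WT and 1.13 ± 0.31 in cr (adjusted p = 0.00205 and 0.015). A call in 1 genotype and not in the other does not show a difference between them, so the difference itself was tested as a genotype by stage interaction. It was called for 31 members, with the stage change more positive in cr for 29 (22.5%) and more negative for 2 (1.55%), where 8.53% of all genes were more positive and 4.62% more negative. The median interaction of the members was 0.59 on the log2 scale against 0.03 over all genes. Without the LPAT and trichome birefringence-like genes, a subset chosen after the data were seen, 91 members remained, of which 41 fell and 11 rose in WT and 21 had a more positive and 1 a more negative stage change in cr. Scaling by library totals alone, chosen after seeing the data, moved the median WT stage change of all genes to -0.19 and the split in WT to 12 risen and 64 fallen members.

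**Figure D1:**
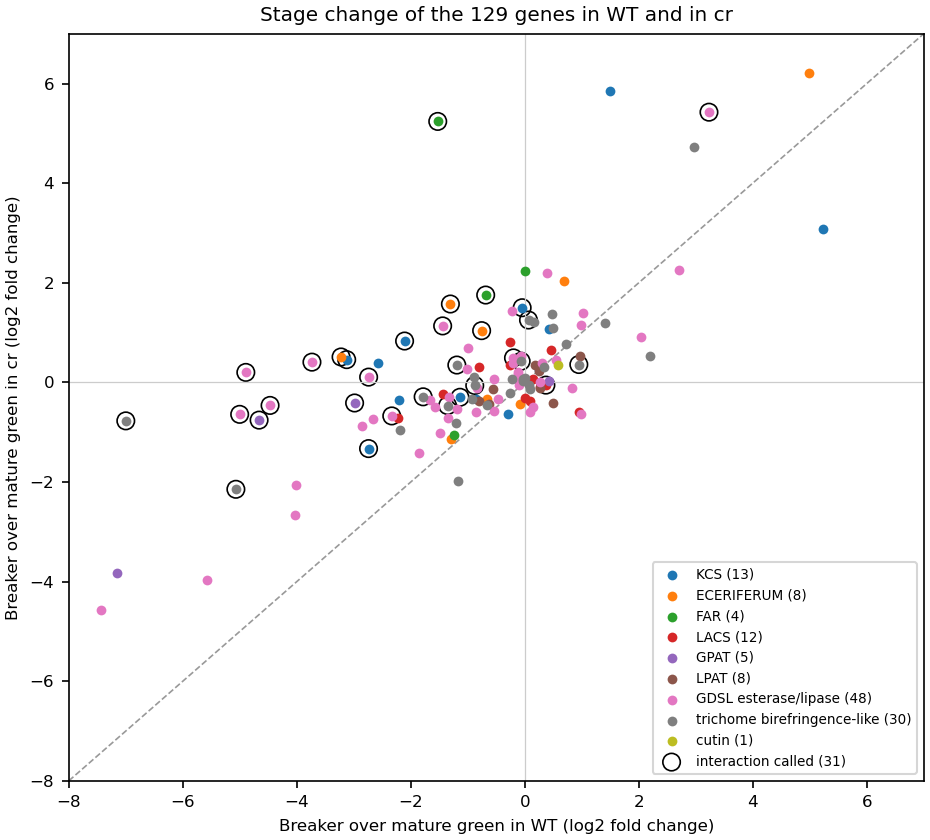
Log2 fold change from mature green to breaker in WT (horizontal) and in cr (vertical) for the 129 genes, one point a gene, coloured by role with the number of genes in the key; rings mark the 31 genes whose stage change differed between genotypes, and the dashed line marks equal change. Of the ringed genes, 29 lie above the line and 2 below it.

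**Figure D2:**
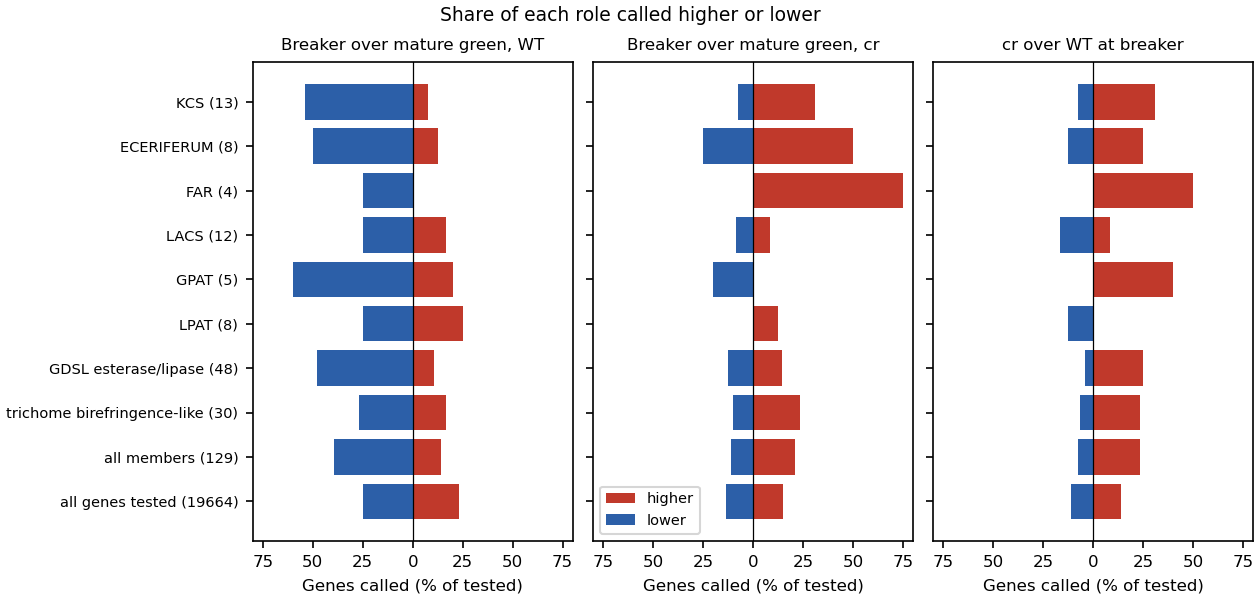
Percentage of the tested genes of each role called higher (right, red) or lower (left, blue) in 3 comparisons, with the number tested in brackets and all 19664 genes in the bottom row. In WT the lower share was 53.8% for KCS, 50% for ECERIFERUM, 60.0% for GPAT and 47.9% for GDSL esterases or lipases, against 24.9% of all genes.

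Although most called genes fell in WT, the summed level of the members was higher at breaker, and 1 gene carried that difference. Summed over all 129, the level was 3750 ± 176 CPM (SD, n = 3) at mature green and 5244 ± 95.4 at breaker in WT, and 2978 ± 221 and 4673 ± 258 in cr. Without the CER1-like gene Solyc01g088400 it was 3702 ± 181 and 3742 ± 157.8 in WT, and 2970.3 ± 220.4 and 4134 ± 214 in cr. The sums without that gene overlapped between the WT stages and did not overlap between the cr stages. No test was made of the sums.

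**Figure D3:**
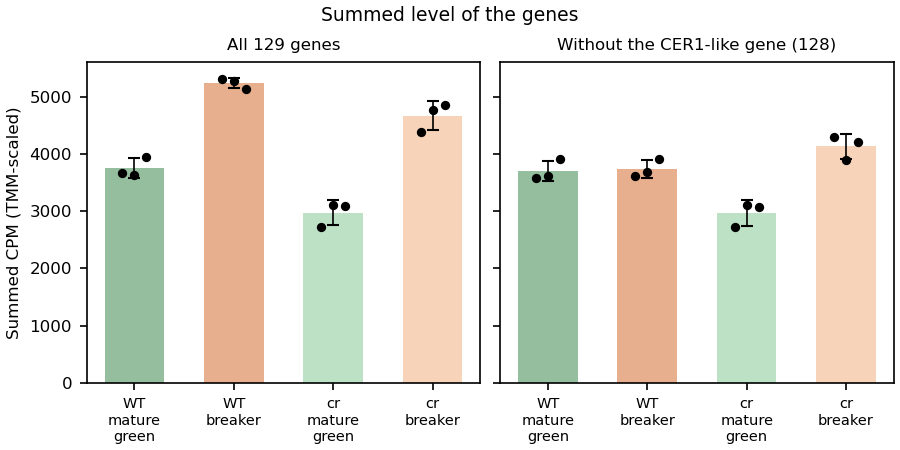
Summed CPM in each library (points), with the group mean (bars) and SD, for all 129 genes and without the CER1-like gene Solyc01g088400. Leaving it out takes the WT breaker mean from 5244 to 3742 CPM, close to the WT mature green mean of 3702.

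Among the KCS condensing enzymes, 7 of 13 (53.8%) fell and 1 (7.69%) rose in WT, against 24.9% and 23.4% of all genes. In cr 1 (7.69%) fell and 4 (30.8%) rose, against 13.5% and 15.2%. The median log2 stage change was -0.86 in WT and 0.39 in cr, and 5 (38.5%, against 8.53% of all genes) had a positive interaction. The most abundant was Solyc02g085870 (chromosome 2, 46663799 to 46666123, SL4.0), the tomato CER6, whose loss is known to deplete the longest alkanes of tomato fruit wax. Its deposited FPKM, a level per length that allows genes to be compared, averaged 70.1 over the 12 libraries, and all positions given are on SL4.0. In WT its CPM values were 148, 140.0 and 172 at mature green, against 128, 118 and 200.3 at breaker. In cr they were 44.6, 91.6 and 115 at mature green, against 299, 163 and 249 at breaker. The WT stages overlapped, while every cr breaker library stood above every cr mature green library. The log2 stage change was -0.05 ± 0.30 (SE) in WT with adjusted p = 0.913, and 1.5 ± 0.31 in cr with adjusted p = 0.00318. The interaction of 1.54 ± 0.43 had adjusted p = 0.0323, which was lost (0.0525 to 0.0807) without any 1 of the 3 WT mature green libraries, WT breaker library 1 or 2, cr mature green library 2, or cr breaker library 1 or 3.

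Another KCS6-like gene, Solyc05g009270 (chromosome 5, 3460844 to 3463738), was the KCS gene that rose in WT. WT libraries had CPM values of 1.13, 0.998 and 0.927 at mature green, against 38.1, 37.2 and 39.9 at breaker. In cr the values were 0.147, 0.496 and 0.922 at mature green, against 3.95, 2.25 and 7.27 at breaker. It was near 1 CPM or under in every mature green library, and the breaker libraries of the genotypes did not overlap. It rose by 5.22 ± 0.41 on the log2 scale in WT (adjusted p = 7e-07) and by 3.08 ± 0.46 in cr (adjusted p = 0.000409; 3.77 without cr mature green library 3). At breaker it was lower in cr (log2 fold change -3.10 ± 0.35, adjusted p = 6.11e-05), and the interaction of -2.14 ± 0.68 missed the threshold at adjusted p = 0.0546.

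The KCS20-like gene Solyc09g083050 fell in WT and was not called in cr; its Arabidopsis relative acts in wax and suberin chain elongation. CPM values in WT were 15.2, 16.7 and 17.6 at mature green, against 0.476, 1.93 and 3.27 at breaker. In cr they were 2.84, 13.1 and 16.6 at mature green, against 21.8, 12.1 and 10.8 at breaker. The WT stages did not overlap, and the cr stages did. The stage change was -3.12 ± 0.61 in WT (adjusted p = 0.000921) and 0.46 ± 0.51 in cr (adjusted p = 0.547), with an interaction of 3.58 ± 0.80 (adjusted p = 0.0112). The KCS1-like Solyc10g009240 fell in WT (log2 fold change -2.11 ± 0.49, adjusted p = 0.00313) with an interaction of 2.94 ± 0.66 (adjusted p = 0.0114). WT breaker library 3 held the highest value in that group for both genes. Without it the WT changes were -3.77 and -3.29 and the interactions 4.22 and 4.12. By contrast, Solyc08g067260, like the Arabidopsis KCS10 (FIDDLEHEAD), was at 94.7 ± 5.69 CPM (SD, n = 3) and 127 ± 12.4 in WT and at 57.7 ± 17 and 121 ± 23.6 in cr. It rose in cr, by 1.07 ± 0.19 (adjusted p = 0.00127), and its change in WT of 0.42 ± 0.19 missed the threshold (adjusted p = 0.0817).

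Of the 8 ECERIFERUM genes, 4 (50%) fell and 1 (12.5%) rose in WT, against 24.9% and 23.4% of all genes. In cr 2 (25%) fell and 4 (50%) rose, against 13.5% and 15.2%. A positive interaction was called for 3 (37.5%, against 8.53% of all genes). The gene that rose in WT was Solyc01g088400 (chromosome 1, 75442453 to 75446958), like the Arabidopsis aldehyde decarbonylase CER1 that yields alkanes. At a mean of 253 FPKM over all libraries it was the most abundant member. In WT its CPM was 79.5, 21.7 and 41.5 at mature green, against 1698, 1592 and 1216 at breaker. In cr it was 5.97, 5.51 and 10.2 at mature green, against 82.8, 883 and 652 at breaker. Stages did not overlap in either genotype, and cr breaker library 1, the library with the lowest ripening markers of its group, was far below the other two. It rose by 4.98 ± 0.72 in WT (adjusted p = 8.91e-05; 5.57 without WT mature green library 1) and by 6.22 ± 0.78 in cr (adjusted p = 0.000108). The interaction of 1.24 ± 0.90 missed the threshold (adjusted p = 0.415).

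A relative of CER3, the partner of CER1 in alkane synthesis, moved the other way in WT. Solyc03g117800 (chromosome 3, 61280649 to 61284990), like the Arabidopsis CER3, had CPM values of 176, 224 and 239 at mature green, against 5.3, 15.2 and 48 at breaker in WT. In cr the values were 42.8, 111 and 154 at mature green, against 215, 112 and 111 at breaker. All WT breaker libraries lay below all WT mature green libraries, whereas the cr stages overlapped. The gene fell in WT (log2 fold change -3.22 ± 0.63, adjusted p = 0.000909) against 0.51 ± 0.57 in cr (adjusted p = 0.542). The interaction was 3.73 ± 0.84 (adjusted p = 0.0115). WT breaker library 3 held the highest WT breaker value, and without it the WT change was -4.37 and the interaction 4.88. In deposited FPKM, the CER1-like gene stood at 23 and the CER3-like gene at 83.1 in WT at mature green, and at 726 and 8.86 at breaker. In cr the CER1-like gene went from 3.5 to 259 FPKM and the CER3-like gene from 40.1 to 56.6, and the order of the pair by group mean turned over in both genotypes. In cr this did not hold in breaker library 1, at 39.6 FPKM for the CER1-like and 83.0 for the CER3-like gene.

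Solyc12g087980, like the Arabidopsis CER2 that aids elongation to the longest wax chains, moved in opposite directions in the 2 genotypes. Its CPM was 10.7, 15.5 and 16 at mature green, against 3.39, 4.79 and 8.9 at breaker in WT. The cr values were 6.07, 3.92 and 9.03 at mature green, against 15.8, 17.6 and 23.3 at breaker. Stages did not overlap in either genotype. It fell in WT (log2 fold change -1.30 ± 0.34, adjusted p = 0.00652) and rose by 1.57 ± 0.33 in cr (adjusted p = 0.00374), with an interaction of 2.88 ± 0.48 (adjusted p = 0.00222). The other 5 ECERIFERUM members spanned WT stage changes from -1.29, in a feature like the E3 ubiquitin ligase SUD1, to 0.68, in another CER3-like feature. That CER3-like feature was not called in WT (adjusted p = 0.091) and rose in cr by 2.04 ± 0.33 (adjusted p = 0.000669). Its mean in WT at breaker was 8.84 FPKM, against 8.86 for the CER3-like Solyc03g117800.

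**Figure D4:**
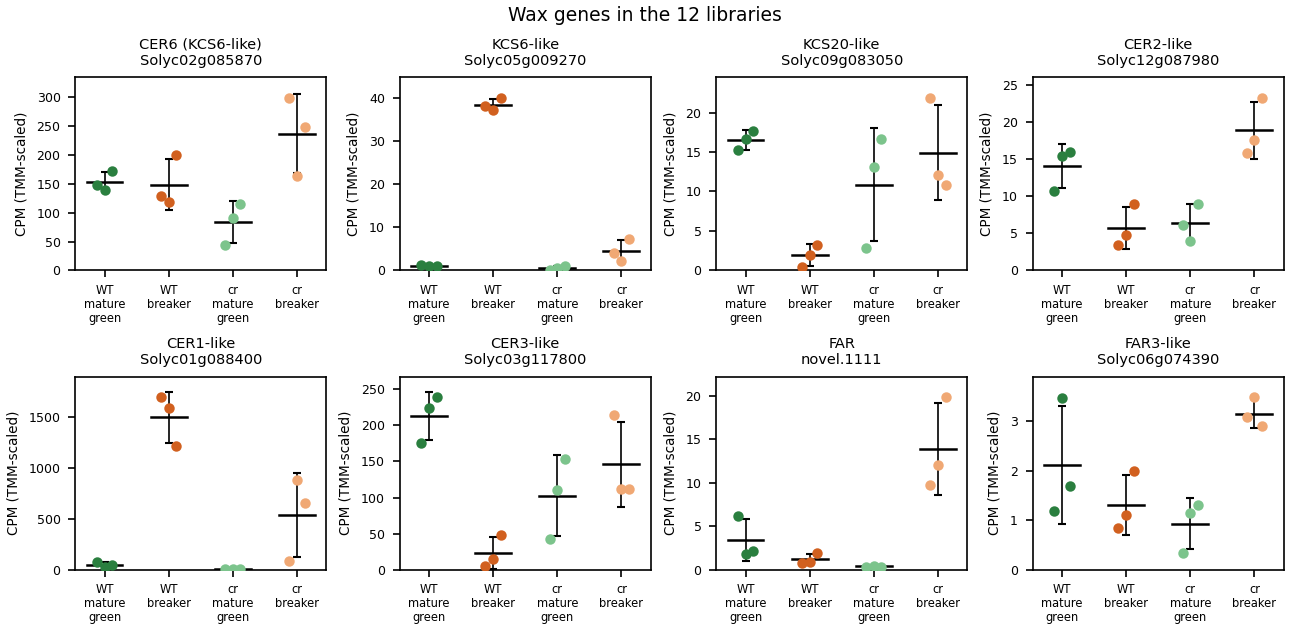
TMM-scaled CPM of 8 wax genes in each of the 12 libraries (points), with the group mean (long bar) and SD (whiskers), on a linear axis that starts at 0. The CER1-like gene stands far above its mature green level in all 3 WT breaker libraries, and the CER3-like, KCS20-like and CER2-like genes are low in WT breaker alone or in WT breaker and cr mature green.

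The reductases that make wax alcohols were scarce, with mean FPKM from 0.660 to 2.68. Of the 4 FAR genes, 1 (25%) fell in WT, near the 24.9% of all genes, and 3 rose in cr, against 15.2% of all genes. A feature on chromosome 11 (50969387 to 50975023) has no Solyc identifier and a description of an alcohol-forming reductase. CPM in WT was 6.19, 1.79 and 2.18 at mature green, against 0.774, 0.876 and 1.88 at breaker. The mutant gave 0.343, 0.447 and 0.291 at mature green, against 9.73, 12 and 19.8 at breaker. The cr libraries were the lowest of all at mature green and the highest of all at breaker. The interaction of 6.77 ± 0.75 was the largest of the 129 (adjusted p = 0.00019). The gene rose in cr by 5.24 ± 0.56 (adjusted p = 3.55e-05), and its log2 fold change in WT of -1.53 ± 0.50 (adjusted p = 0.0215) depended on single libraries. Without WT mature green library 1 the WT change was -0.75 (adjusted p = 0.167) and the interaction 5.99, and without WT breaker library 1 or 2 the WT call was lost at adjusted p = 0.0805 and 0.0792. Its neighbour Solyc11g067180, whose reads may be shared with it, also rose in cr (log2 fold change 2.23 ± 0.67, adjusted p = 0.0239). Its levels were low and the cr stages overlapped. They were 0.587, 0.645 and 0.291 CPM at mature green, against 0.608, 2.09 and 4.54 at breaker. The FAR3-like Solyc06g074390 rose in cr by 1.75 ± 0.49 (adjusted p = 0.0174) with an interaction of 2.44 ± 0.69 (adjusted p = 0.0351). The first call was lost without cr mature green library 1 (adjusted p = 0.0551) or cr breaker library 2 (0.0515). The interaction call was lost (0.0522 to 0.102) without WT mature green library 2, WT breaker library 1 or 2, cr mature green library 1 or 2, or any 1 cr breaker library.

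The acyl activating LACS genes were called in both directions. Of 12 genes, 3 (25%) fell and 2 (16.7%) rose in WT, against 24.9% and 23.4% of all genes. In cr 1 (8.33%) fell and 1 (8.33%) rose, against 13.5% and 15.2%. The median log2 stage change was 0.04 in WT and -0.08 in cr. The interaction was called for 1 (8.33%), with a more negative change in cr, against 4.62% of all genes. The most abundant was the LACS6-like Solyc01g099100, whose Arabidopsis relative works in peroxisomes, at 278 ± 33.7 CPM (SD, n = 3) and 383 ± 6 in WT and 235 ± 16.2 and 366 ± 47.2 in cr. It rose by 0.47 ± 0.12 in WT (adjusted p = 0.00458) and by 0.64 ± 0.12 in cr (adjusted p = 0.00133). The LACS9-like Solyc11g018580, related to a plastid enzyme, rose by 0.37 ± 0.08 in WT (adjusted p = 0.00205) against -0.05 ± 0.08 in cr (adjusted p = 0.657). The WT call was lost when libraries were scaled by their totals alone (0.17, adjusted p = 0.107). Its interaction was -0.43 ± 0.11 (adjusted p = 0.0277), lost (0.0520 to 0.0694) without WT mature green library 2, WT breaker library 2, cr mature green library 2 or 3 or cr breaker library 2 or 3, and lost (0.0905) with scaling by totals alone.

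The 5 GPAT genes fell into separate patterns. The GPAT6, GPAT4 and GPAT1 relatives fell in WT, while the GPAT9 relative Solyc08g082340, which in Arabidopsis serves membrane and storage lipid synthesis, was between 59.8 and 71.9 CPM in all 12 libraries. The plastid GPAT Solyc08g076470 rose in WT (log2 fold change 0.42 ± 0.11, adjusted p = 0.00519), a call lost with scaling by totals alone (0.22, adjusted p = 0.136). Tomato GPAT6, Solyc09g014350 (chromosome 9, 5897945 to 5901309), is needed for normal fruit cutin. Its CPM in WT was 8.92, 17.7 and 1.47 at mature green, against 0.0595, 0.0584 and 0.0606 at breaker. In cr it was 1.03, 1.39 and 10.6 at mature green, against 0.456, 0.322 and 0.114 at breaker. Mature green libraries spread widely within each genotype, and none overlapped the breaker libraries of its genotype. The 3 WT breaker libraries held 3 counts in all against 537 at mature green, a ratio of 159 with a 95% interval of 54.1 to 774 that covers counting error alone. GPAT6 reached the count minimum of the rule at mature green alone, so its falls are not independent of the rule. The WT fall had adjusted p = 0.000897. The log2 fold change in cr was -3.82 ± 1.09 (adjusted p = 0.0193), a call lost without cr mature green library 3 (-1.98, adjusted p = 0.156) or cr breaker library 2 (0.0627) or 3 (0.0780). The interaction was not called (adjusted p = 0.359).

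The GPAT4-like Solyc01g094700 (chromosome 1, 78406496 to 78409526), a relative of the Arabidopsis cutin GPATs, fell in WT and was not called in cr. CPM values in WT were 30.1, 36.6 and 24.2 at mature green, against 0.595, 1.05 and 1.94 at breaker. The cr libraries had 12.2, 22.3 and 32.2 at mature green, against 22.3, 8.04 and 8.97 at breaker. WT breaker libraries were all below every other library, and the cr stages overlapped. The change was -4.66 ± 0.52 in WT (adjusted p = 1.16e-05) and -0.76 ± 0.40 in cr (adjusted p = 0.177), with an interaction of 3.90 ± 0.66 (adjusted p = 0.00257; 3.27 without cr breaker library 1). The GPAT1-like Solyc07g056320 fell from 15.3 ± 3.03 to 1.92 ± 0.485 CPM in WT (adjusted p = 9.62e-05) and was at 7.24 ± 2.04 and 5.41 ± 3.97 in cr. Its interaction was 2.57 ± 0.58 (adjusted p = 0.0123; 1.77 without cr breaker library 1).

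CD1 itself, Solyc11g006250 (chromosome 11, 1043984 to 1046863), fell in both genotypes. Its CPM in WT was 11.6, 37.2 and 3.11 at mature green, against 0, 0.759 and 0.303 at breaker. In cr it was 2.94, 3.87 and 38.1 at mature green, against 1.82, 0.75 and 0.227 at breaker. Levels varied widely between mature green libraries of the same group, with WT library 2 and cr library 3 the highest, as for GPAT6. The log2 fold change was -5.57 ± 1.36 in WT (adjusted p = 0.0043; -4.34 without WT mature green library 2 and -6.78 without WT breaker library 2). For cr it was -3.97 ± 1.16 (adjusted p = 0.0221), lost without cr mature green library 3 (-1.83, adjusted p = 0.212) or cr breaker library 2 (0.0765) or 3 (0.0883), and -4.90 without cr breaker library 1. CD2, Solyc01g091630, a homeodomain regulator of tomato cutin and the member named for cutin, was at 78.7 ± 5.7 CPM (SD, n = 3) and 119 ± 16.6 in WT, and 69.8 ± 9.2 and 88.4 ± 6.84 in cr. It rose in WT by 0.59 ± 0.12 (adjusted p = 0.00133), opposite in direction to GPAT6 and CD1.

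Pathway genes outside the descriptions of the rule were read against the same shares in WT, 24.9% of all genes fallen and 23.4% risen. In cr 13.5% of all genes fell and 15.2% rose, and 8.53% had a positive and 4.62% a negative interaction. Of 5 tested CYP86A and CYP77A genes, 4 fell in WT, 1 fell in cr, and 2 had a positive interaction. Solyc05g055400 had CPM values of 86.6, 117 and 61.2 at mature green, against 1.25, 1.63 and 5.51 at breaker in WT. In cr they were 21.9, 35.8 and 98.6 at mature green, against 55.7, 19.6 and 16.1 at breaker. Only the WT stages were free of overlap, and the interaction was 4.21 ± 0.91 (adjusted p = 0.00933). CD3 (Solyc08g081220), the fatty acid hydroxylase of tomato cutin, fell from 13.6 ± 11.2 to 0.0995 ± 0.0921 CPM in WT and from 7.52 ± 9.02 to 1.16 ± 0.563 in cr (adjusted p = 0.000578 and 0.0386). The triterpenoid synthase TTS1 (Solyc12g006530), which supplies amyrins of tomato wax, fell from 44.2 ± 2.76 to 6.25 ± 2.62 CPM in WT and was at 33 ± 10.2 and 28.5 ± 7.24 in cr, with an interaction of 2.62 ± 0.39 (adjusted p = 0.00112). Of 38 lipid-transfer proteins, 22 fell and 3 rose in WT, 7 fell and 5 rose in cr, and 12 had a positive interaction. Of 28 ABCG transporters, 8 (28.6%) fell and 4 rose in WT, a share near that of all genes, and 5 fell and 7 rose in cr. Of 15 wax ester and related genes, 8 fell and 3 rose in WT, and 5 rose in cr. Of 5 genes with an elongation dehydratase or reductase in their description, 2 fell and 2 rose. Of 5 tested cuticle genes taken by name, CD3, TTS1, TTS2 and the regulator SHN2 fell in WT, and the MIXTA-like factor rose. SHN2 (Solyc12g009490) had 41 counts over the WT mature green libraries and 0 at breaker, at least 12.1-fold lower against a floor of 3 counts over the group.

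**Figure D5:**
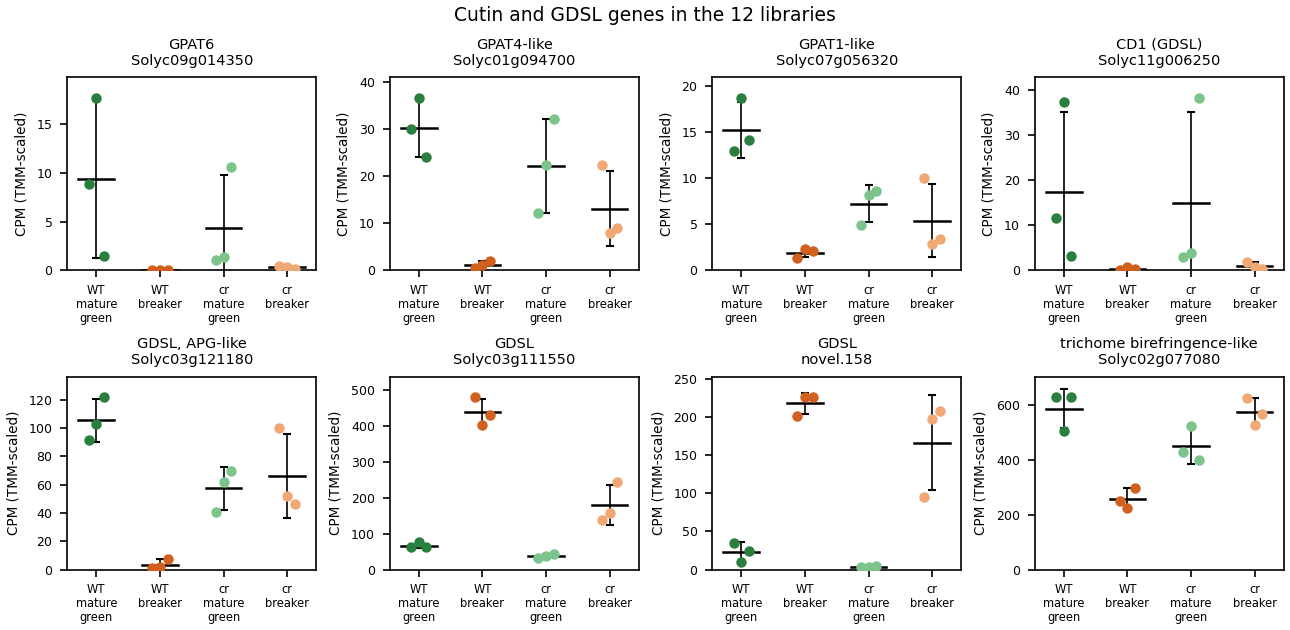
TMM-scaled CPM of 8 cutin, GDSL and trichome birefringence-like genes in each of the 12 libraries (points), with the group mean (long bar) and SD (whiskers), on a linear axis that starts at 0. GPAT4-like, GPAT1-like and Solyc03g121180 are low in all 3 WT breaker libraries, GPAT6 and CD1 are near 0 in every breaker library, and Solyc03g111550 and the acetylajmalan esterase-like feature are highest at breaker.

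The GDSL esterases and lipases were the largest role and had wide FPKM levels, from 0.214 to 153 in mean, with a median of 2.44. In WT 23 of 48 (47.9%) fell and 5 (10.4%) rose, against 24.9% and 23.4% of all genes. In cr 6 (12.5%) fell and 7 (14.6%) rose, near the 13.5% and 15.2% of all genes. The interaction was positive for 9 (18.8%, against 8.53% of all genes), and the median stage change was -0.69 in WT and -0.08 in cr. The largest interaction in the role was that of Solyc03g121180 (chromosome 3, 63799519 to 63801703), like the Arabidopsis anther gene APG. WT libraries had CPM values of 91.8, 103 and 122 at mature green, against 0.834, 2.04 and 7.81 at breaker. The mutant had 40.5, 62 and 70.1 at mature green, against 100.05, 51.9 and 46.2 at breaker. The WT breaker libraries were the lowest of all, and the cr stages overlapped. The change was -4.89 ± 0.53 in WT (adjusted p = 8.75e-06) and 0.20 ± 0.42 in cr (adjusted p = 0.761), with an interaction of 5.09 ± 0.67 (adjusted p = 0.000584). Without WT breaker library 3 the WT change was -6.19 and the interaction 6.39.

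Other GDSL genes rose at breaker. Solyc03g111550 (chromosome 3, 56559816 to 56562163), the most abundant of the role, had CPM values of 62.4, 76.2 and 62.3 at mature green, against 479.6, 403 and 430.0 at breaker in WT. In cr they were 31.9, 37 and 44.5 at mature green, against 137, 158.5 and 244 at breaker. At each stage every cr library was below every WT library. The rise was 2.71 ± 0.20 in WT (adjusted p = 4.33e-07) and 2.25 ± 0.20 in cr (adjusted p = 1.02e-05), and the interaction was not called (adjusted p = 0.292). A feature with no Solyc identifier on chromosome 1 (81641611 to 81645442), similar to an acetylajmalan esterase, was at 34.8, 9.83 and 24.9 CPM at mature green, against 202, 226 and 226 at breaker in WT. In cr it was at 3.23, 3.92 and 4.46 at mature green, against 94.7, 198 and 208 at breaker. It rose in both, by 3.23 ± 0.37 (adjusted p = 1.51e-05) and 5.43 ± 0.44 (adjusted p = 6.57e-06), with an interaction of 2.19 ± 0.53 (adjusted p = 0.0177).

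Neighbouring GDSL genes did not all move together. On chromosome 2, Solyc02g071610 (39024778 to 39027300) fell in WT, where its CPM was 5.21, 4.36 and 4.42 at mature green, against 0, 0.0584 and 0.363 at breaker. In cr the CPM was 1.96, 5.86 and 6.65 at mature green, against 5.47, 1.93 and 1.82 at breaker, and the stages overlapped. Its WT change was -5.00 ± 0.78 (adjusted p = 0.000169) and its interaction 4.36 ± 0.98 (adjusted p = 0.0114). Without WT breaker library 3 these were -7.01 and 6.37, and without cr breaker library 1 the interaction was 3.64. The adjacent Solyc02g071620 was at 13.5 ± 1.53 and 11.6 ± 3.32 CPM in WT and 9.46 ± 4.06 and 25.5 ± 15.8 in cr, with a rise in cr of 1.43 ± 0.40 (adjusted p = 0.0173). Solyc02g071700, in the same cluster, had 65 counts over the WT mature green libraries and 0 over those at breaker, at least 19.2-fold lower against the same floor. That gene reached the count minimum at mature green alone, so its fall is not independent of the rule. On chromosome 4, a feature with no Solyc identifier (63662174 to 63664478) and Solyc04g081755, both like the Arabidopsis EXL3, lie beside each other and fell in WT, with log2 fold changes of -3.73 ± 0.44 (adjusted p = 1.62e-05; -4.47 without WT breaker library 3) and -2.74 ± 0.43 (adjusted p = 0.000183). Their interactions were 4.14 ± 0.56 (adjusted p = 0.000659; 4.88 without WT breaker library 3) and 2.85 ± 0.57 (adjusted p = 0.00669), and reads may be shared between them. Among the lower GDSL genes, Solyc12g017460 fell in WT (log2 fold change -4.01 ± 0.78, adjusted p = 0.000931; -3.41 without WT mature green library 1 and -4.80 without WT breaker library 2). Its call in cr (adjusted p = 0.0314) was lost without cr mature green library 1 (0.05) or 3 (0.130), or cr breaker library 1 (0.0597) or 2 (0.106).

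The trichome birefringence-like proteins were mixed in WT, with 8 of 30 (26.7%) falling and 5 (16.7%) rising, against 24.9% and 23.4% of all genes. In cr 3 fell and 7 (23.3%) rose, against 13.5% and 15.2%. The interaction was positive for 8 (26.7%) and negative for 1 (3.33%), against 8.53% and 4.62% of all genes. The median stage change was -0.05 in WT and 0.06 in cr. Solyc02g077080 (chromosome 2, 40125293 to 40129804), the second most abundant member at 239 FPKM, had CPM values in WT of 626, 504 and 627 at mature green, against 248, 222 and 299 at breaker. In cr they were 426, 524 and 397 at mature green, against 626, 525 and 565 at breaker. The 3 WT breaker libraries stood below all others. The gene fell in WT (log2 fold change -1.19 ± 0.14, adjusted p = 2.13e-05) against 0.35 ± 0.14 in cr (adjusted p = 0.0834), with an interaction of 1.54 ± 0.20 (adjusted p = 0.000569). Solyc11g006990 was at 255 ± 78.5 and 356 ± 38.2 CPM in WT and rose in cr from 142 ± 35.2 to 369 ± 20.4 (adjusted p = 0.000419). Solyc01g095610 fell in WT (log2 fold change -5.07 ± 0.51, adjusted p = 4.5e-06) and in cr (log2 fold change -2.15 ± 0.37, adjusted p = 0.000969). Its interaction was 2.92 ± 0.66 (adjusted p = 0.0119), and without WT breaker library 1 the WT change was -6.03 and the interaction 3.88. Solyc03g006220 had 48 counts over the WT mature green libraries and 0 at breaker, at least 14.2-fold lower against the same floor, and 17 counts over the cr breaker libraries (interaction adjusted p = 0.0113). This gene reached the count minimum at mature green alone, so its fall is not independent of the rule. Solyc06g084290 and Solyc02g089680 rose in both genotypes, by 1.41 ± 0.16 and 0.95 ± 0.11 in WT. In cr the rises were 1.19 ± 0.16 and 0.36 ± 0.11, the latter lost (adjusted p 0.0769 to 0.114) with scaling by totals alone or without cr mature green library 2 or 3 or cr breaker library 2 or 3. Solyc01g079850 rose in WT by 2.97 ± 0.53 (adjusted p = 0.000468; 3.68 without WT mature green library 3), and in cr from 2 to 58 counts over the group (adjusted p = 0.000639).

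The LPAT genes were called in both directions in WT. Of 8, 2 (25%) fell and 2 (25%) rose in WT, near the 24.9% and 23.4% of all genes. In cr 1 (12.5%) rose, against 15.2% of all genes. The log2 changes in WT ran from -0.80 to 0.96. The most abundant, Solyc08g060830, was at 29.2 ± 1.85 and 33.2 ± 6.55 CPM in WT and 27 ± 1.87 and 34.3 ± 3.39 in cr.

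At mature green the genotypes differed in few members. In cr 7 of 129 (5.43%) were lower and 2 (1.55%) higher than in WT, where 2.62% of all genes were lower and 1.72% higher. The median log2 fold change was -0.17 against -0.01 over all genes. The count of 9 became 15 in DESeq2. It became 3 to 5 without WT mature green library 1 or 3, WT breaker library 1 or 2, cr mature green library 1 or 2, or cr breaker library 3. Upper quartile scaling gave 1 higher and 8 lower. The lower genes included the acetylajmalan esterase-like feature at -2.58 ± 0.42 (adjusted p = 0.00583) and the chromosome 11 FAR feature at -3.21 ± 0.57 (adjusted p = 0.00921; -2.44 without WT mature green library 1).

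The GDSL gene Solyc04g024840 was lower in cr at both stages. CPM in WT was 7.99, 8.99 and 6.82 at mature green, against 6.85, 5.84 and 4.48 at breaker. The cr libraries gave 2.3, 1.74 and 2.52 at mature green, against 2.03, 1.72 and 1.48 at breaker. No cr library reached the lowest WT library. The log2 fold change was -1.86 ± 0.23 at mature green (adjusted p = 0.000823) and -1.71 ± 0.23 at breaker (adjusted p = 0.000226). The LACS8-like Solyc12g009040 was higher in cr at both stages, by 1.21 ± 0.27 (adjusted p = 0.0275) and 0.91 ± 0.28 (adjusted p = 0.0302). Its mature green call was lost (0.0552 to 0.107) without any 1 WT mature green library or cr mature green library 1 or 2. Its breaker call was lost (0.0571 to 0.102) with the breaker groups fitted alone, or without WT breaker library 1 or 3 or cr breaker library 1 or 2. The CER1-like Solyc01g088400 was lower in cr at mature green (log2 fold change -2.71 ± 0.69, adjusted p = 0.0453), a call that was lost (0.0532 to 0.160) without any 1 WT breaker or cr mature green library, WT mature green library 1 (-2.12) or 3, or cr breaker library 3. The plastid GPAT Solyc08g076470 was also called higher in cr at mature green (adjusted p = 0.0497). The LACS4-like Solyc08g008310 (adjusted p = 0.0449), the trichome birefringence-like Solyc11g006990 (adjusted p = 0.0384) and Solyc03g111550 (adjusted p = 0.0314) were called lower there. The plastid GPAT lost its call in 10 of 12 leave-one-out fits, all but those without WT breaker library 3 or cr breaker library 1. The LACS4-like gene lost it in all but those 2 and the fit without cr mature green library 3. Solyc11g006990 lost it without WT mature green library 3, WT breaker library 1 or 2, any 1 cr mature green library, or cr breaker library 2 or 3. Solyc03g111550 lost it without any 1 WT mature green library or cr mature green library 1 or 2.

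At breaker 30 of 129 members (23.3%) were higher in cr and 10 (7.75%) lower, where 14.0% of all genes were higher and 11.0% lower. The median was 0.35 against 0.00 over all genes. With scaling by totals alone, which moved the median of all genes to 0.13, 42 were higher and 6 lower. By role, 12 of 48 GDSL esterases and lipases, 7 of 30 trichome birefringence-like, 4 of 13 KCS, 2 of 8 ECERIFERUM, 2 of 5 GPAT and 2 of 4 FAR genes were higher in cr. The largest differences included Solyc03g121180 at 4.22 ± 0.52 (adjusted p = 0.000124; 5.51 without WT breaker library 3), the chromosome 11 FAR feature at 3.55 ± 0.49 (adjusted p = 0.000236) and the GPAT4-like gene at 3.46 ± 0.53 (adjusted p = 0.000515; 2.83 without cr breaker library 1). The GPAT1-like call at breaker was lost without any 1 WT breaker library (0.0503 to 0.0915) or cr breaker library 1 (0.149). The CER3-like gene differed by 2.68 ± 0.62 (adjusted p = 0.00676; 3.83 without WT breaker library 3). Among the 10 lower genes were the KCS6-like Solyc05g009270, Solyc03g111550 at -1.28 ± 0.19 (adjusted p = 0.00037) and CD2 at -0.42 ± 0.12 (adjusted p = 0.0213). The CD2 call was lost with scaling by totals alone (0.122) or without WT breaker library 3 (0.0794) or cr breaker library 2 (0.0791). These breaker comparisons and the stage comparisons share libraries.

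Replicates within groups were not equal for these genes. Among the 95 members with a mean of at least 1 CPM in WT at breaker, library 3 held the highest value for 55. In cr, mature green library 3 was the highest for 50 of 106 members and breaker library 1 for 52 of 106. Breaker library 1 of cr was highest for the CER3-like gene, GPAT4, GPAT1, CD1 and Solyc03g121180, lowest for the CER1-like gene, the acetylajmalan esterase-like feature and the chromosome 11 FAR feature, and lowest in ripening markers. The part of ripening progress in this was not tested. Lists of genes of other tissues also moved between groups. The 52 seed genes, 40 of them for late embryogenesis proteins, summed to 5823 to 8779 CPM in WT and 6479 to 7769 in cr at mature green, and to 2677 to 2862 and 3845 to 5365 at breaker. The 6 oleosin genes among them summed to 25.8 to 76.9 CPM in WT and 11.1 to 16.8 in cr at mature green, and 72.6 to 105 and 104 to 122 at breaker. The storage protein genes (2 of vicilin or legumin type) were at 0.946 to 68.7 CPM in WT and 0.392 to 0.744 in cr at mature green, and 1.13 to 19.99 and 0.429 to 1.27 at breaker. In WT 13 of the 52 (25%) fell and 12 (23.1%) rose, near the 24.9% and 23.4% of all genes. Of 23 xylem genes, 14 (60.9%) fell and 1 rose in WT, with sums of 579 to 608 CPM at mature green and 436 to 500 at breaker, and of 458 to 512 and 393 to 468 in cr. The interaction was positive for 6 xylem genes (26.1%) and negative for 0, against 22.5% and 1.55% of the members. At breaker 11 xylem genes (47.8%) were higher in cr and 1 (4.35%) lower, against 23.3% and 7.75% of the members. For the seed genes the interaction was positive for 15.4% and negative for 7.69%. Their part in the results above was not tested.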

How the data were processed

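RNA of fruit pericarp was sequenced in 12 libraries, 3 in each of 4 groups given by genotype and stage in the labels. The authors deposited raw counts per gene and FPKM values, with coordinates on SL4.0 per the file headers. Per the submitters' processing notes, edgeR 3.22.5 and DESeq2 1.20.0 were used along with featureCounts 1.5.0-p3, HISAT2 2.0.5 and fastp 0.23.1. The strand and multi-mapping settings were not given in the sources used here, so levels of overlapping or near-identical genes are uncertain.

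Counts were tested with edgeR 4.0.16 in R 4.3.3 (quasi-likelihood test, TMM factors, 1 coefficient per group over all 12 libraries). Genes were kept by filterByExpr (minimum count 10, minimum total 15), which left 19664 genes holding 99.9% of counts. P-values were adjusted over all of them by Benjamini-Hochberg, with a call at an adjusted p under 0.05. The SE given with a log2 fold change was derived as its absolute value over the square root of the F statistic of its test. It is an approximation, less secure for genes near 0 counts in a group. Libraries held 17703054 to 19426192 counts, and the common biological coefficient of variation was 0.155. The script was tested on simulated data. CPM was used within genes and the deposited FPKM between genes. Intervals and floors cover counting error only.

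The members and lists were chosen with earlier results of these data known. Named genes were CD1, GPAT6 and CER6, the 2 members of highest FPKM in each class, the 5 called members of largest fold change each way in each comparison (mean of at least 1 CPM in the higher group, no overlap between groups), and up to 2 called members of largest interaction in each class. Other genes were named after their values were seen. SHN3, DCR and RIN were not analysed here, and sequences were not used here. Alternatives were DESeq2 1.42.0, other scalings and filters, a replicate block, fits of the groups compared alone and leaving out each library.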

Additional observations from a re-analysis of the deposited data

Results flagged for a closer look

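For 18 named genes the change from mature green to breaker differed between cr and WT in a test of the difference itself, the genotype by stage interaction in edgeR's quasi-likelihood test with adjustment over all genes. Each value below is the log2 stage change in cr minus that in WT. Among wax genes it was 1.54 for CER6 (Solyc02g085870), 3.58 for the KCS20-like Solyc09g083050, 2.94 for the KCS1-like Solyc10g009240, 3.73 for the CER3-like Solyc03g117800 and 2.88 for the CER2-like Solyc12g087980. It was 6.77 for the reductase feature on chromosome 11 with no Solyc identifier and 2.44 for the FAR3-like Solyc06g074390. Among acyltransferases it was 3.90 for the GPAT4-like Solyc01g094700 and 2.57 for the GPAT1-like Solyc07g056320.

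Among GDSL genes it was 5.09 for Solyc03g121180, 4.36 for Solyc02g071610, 4.14 for the EXL3-like feature on chromosome 4 and 2.19 for the acetylajmalan esterase-like feature on chromosome 1. Among trichome birefringence-like genes it was 6.23 for Solyc03g006220, 2.92 for Solyc01g095610 and 1.54 for Solyc02g077080. The value for Solyc03g006220 depends on the prior count, since all 3 WT breaker libraries held 0 counts. The same gene met the count minimum of the rule at mature green alone. Negative values were found for the LACS9-like Solyc11g018580, at -0.43, and for the trichome birefringence-like Solyc02g089680, at -0.59 (adjusted p = 0.0267). The last call was lost (adjusted p 0.0514 to 0.0703) without WT mature green library 2 or 3, WT breaker library 2, cr mature green library 1 or cr breaker library 1.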

How the results depend on the processing

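Over 96 called pairs of a named gene and a comparison, 1899 values under an alternative were computed. Of these, 1756 kept direction and side of the threshold, 143 lost the call and 0 reversed, and 25 pairs lost the call under at least 1 alternative. The count of members called at mature green was 9, and 15 in DESeq2. Leaving out each library gave 3 to 13 called members at mature green, 32 to 44 at breaker, 57 to 72 for the stage change in WT, 29 to 45 in cr and 23 to 34 for the interaction. With scaling by totals alone the interaction was positive for 32 members and negative for 1, with a median of 0.13 over all genes.

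Same-numbered libraries did not deviate together: the correlation of deviations ran from -0.15 to 0.08, and 0 of 18 pairs were over 0.1. These values show no strong shared effect of the number. They cannot tell how the libraries were collected or numbered, which was not stated. With a replicate block, 6 members were called at mature green, 38 at breaker, 70 for the stage change in WT, 36 in cr and 29 for the interaction. Calls of named genes lost with the block were those in cr of CD1 (adjusted p = 0.0676), GPAT6 (0.0514) and Solyc02g089680 (0.0532), those at mature green of Solyc01g088400 (0.0795), Solyc11g006990 (0.0754), Solyc08g076470 (0.0949) and Solyc08g008310 (0.0569), that at breaker of Solyc11g018580 (0.0580), and the interactions of Solyc11g018580 (0.0561) and Solyc02g089680 (0.0527).

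With 3 libraries a group, folds of genes with few counts are imprecise, and genes at 0 in a group have bounds in place of folds. Genotype cannot be told apart from ripening progress at the sampled stages, since the labels give no measure of it. Leaving out 1 library moved the mature green count most in proportion, from 9 to 3, while in number of genes the WT stage count moved more, from 69 to 57, as did the cr stage count, from 41 to 29.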
